A study of Homo sapiens with 6 samples.

Results

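The genes described here are the effectors of the Hippo pathway at the level of DNA binding and of the last kinase step: the coactivators YAP1 and WWTR1 (which encodes TAZ), the transcription factors TEAD1 to TEAD4, the cofactors VGLL3 and VGLL4, and the kinases LATS1 and LATS2. They were chosen by symbol, by a rule that uses no measured value but was set with earlier results of these data known, and all 10 were found among the 30330 Ensembl genes of the tables. RNA of NCI-H1975 cells, an established human line from a lung adenocarcinoma, was sequenced in 3 control libraries. The other 3 libraries, titled Drug, are H1975/OSI cells, which were derived from that line and resist the EGFR inhibitor osimertinib. The derivative had been exposed to 0.03, 0.1, 0.3, 1 and 3 µM osimertinib over 7 months. The labels do not say whether it was a clone or a mixed population, whether drug was present at harvest, or whether the replicates came from separate cultures. The p-values below therefore rest on a spread between libraries that may be technical.

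In the Hippo pathway a chain of kinases ends with LATS1 and LATS2, which phosphorylate YAP and TAZ and so keep them out of the nucleus and mark them for degradation. YAP and TAZ that escape this step enter the nucleus, where they bind TEAD proteins and activate genes of growth, adhesion and matrix. The VGLL proteins bind TEAD at a surface that overlaps the one used by YAP, and VGLL4 is known as a competitor of YAP. Most of this regulation acts on the proteins, and RNA libraries do not record phosphorylation, protein amount or position in the cell.

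All values are normalized read counts, that is, reads per gene divided by a size factor of the library, and fold changes are on the log2(value + 1) scale, resistant minus control. The test was limma-trend over 24560 genes with Benjamini-Hochberg adjustment, and a gene was called at an adjusted p under 0.05. Recovered depth was 15174126 to 16276518 reads in the resistant and 15813497 to 16588479 in the control libraries. Resistant 1 stood apart from resistant 2 and 3, with a chi-square per gene of 10.8 and 12.1, against 2.32 between resistant 2 and 3 and 2.43 to 3.66 among controls. The mitochondrial share of reads was 5.33 to 5.66% in resistant and 6.46 to 7.34% in control libraries. Of the lung adenocarcinoma markers, KRT7, KRT8 and NKX2-1 were present in every library, SFTPB was at 0 to 8.67, and EPCAM was at 353 to 391 in control and 15.7 to 19.7 in resistant libraries. The 8 markers summed to 58623 to 61898 in control and 40557 to 47355 in resistant libraries, a sum made up mostly of keratins, while NKX2-1 was at 254 to 303 in control and 440 to 481 in resistant libraries, NAPSA at 14.5 to 23.9 and 24.9 to 37.7, and KRT7 overlapped between the groups. Leukocyte CD68 was at 0 to 5.10, and the endothelial markers PECAM1 and CDH5 summed to 284 to 328 in control and 553 to 749 in resistant libraries. These markers went opposite ways, with PECAM1 at 157 to 199 in control and 78.9 to 88.7 in resistant libraries and CDH5 at 123 to 129 and 464 to 670. The fibroblast markers PDGFRB and LUM summed to 76.1 to 125 and 117 to 153. The part of these markers, of the mitochondrial share and of resistant 1 in the results was not tested, apart from the values without resistant 1 given below. In bulk RNA, fewer cells of a kind and less RNA per cell cannot be told apart.

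YAP1 and VGLL4 rose, and their calls held in all 16 alternative settings. TEAD1 and TEAD3 rose and TEAD4 fell by smaller amounts, and each of these calls ended in several settings. WWTR1, TEAD2, LATS1 and LATS2 did not pass the test, and VGLL3 was too low to be tested. Of the 9 tested genes, 4 were called higher and 1 lower, and 41.5% of all genes tested were called in this comparison (20.4% higher and 21.1% lower). The groups did not overlap for 6 of the 9, with 4 higher and 2 lower, as for 50.1% of all genes tested (24.7% higher and 25.4% lower). With 9 genes these counts are not apart from the background. Leaving out resistant 3 or control 1 left 2 of these calls, and leaving out control 3 left 3. The median log2 fold change of the 9 was 0.20, against 0.01 over all genes tested. All of them but VGLL4 (8 of 9) had an absolute log2 fold change under the median over all genes, 0.45. When each library was centred on its own median, log2 fold changes shifted by -0.13 and higher calls went from 49.1% to 35.8% of all calls. In that scaling 42.3% of all genes were called (15.1% higher and 27.1% lower), and 2 of the 9 genes were called higher and 2 lower. Centred values are therefore given for each of the 9 genes. For other single genes, centring is mentioned only for some whose call changed.

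**Figure D1:**
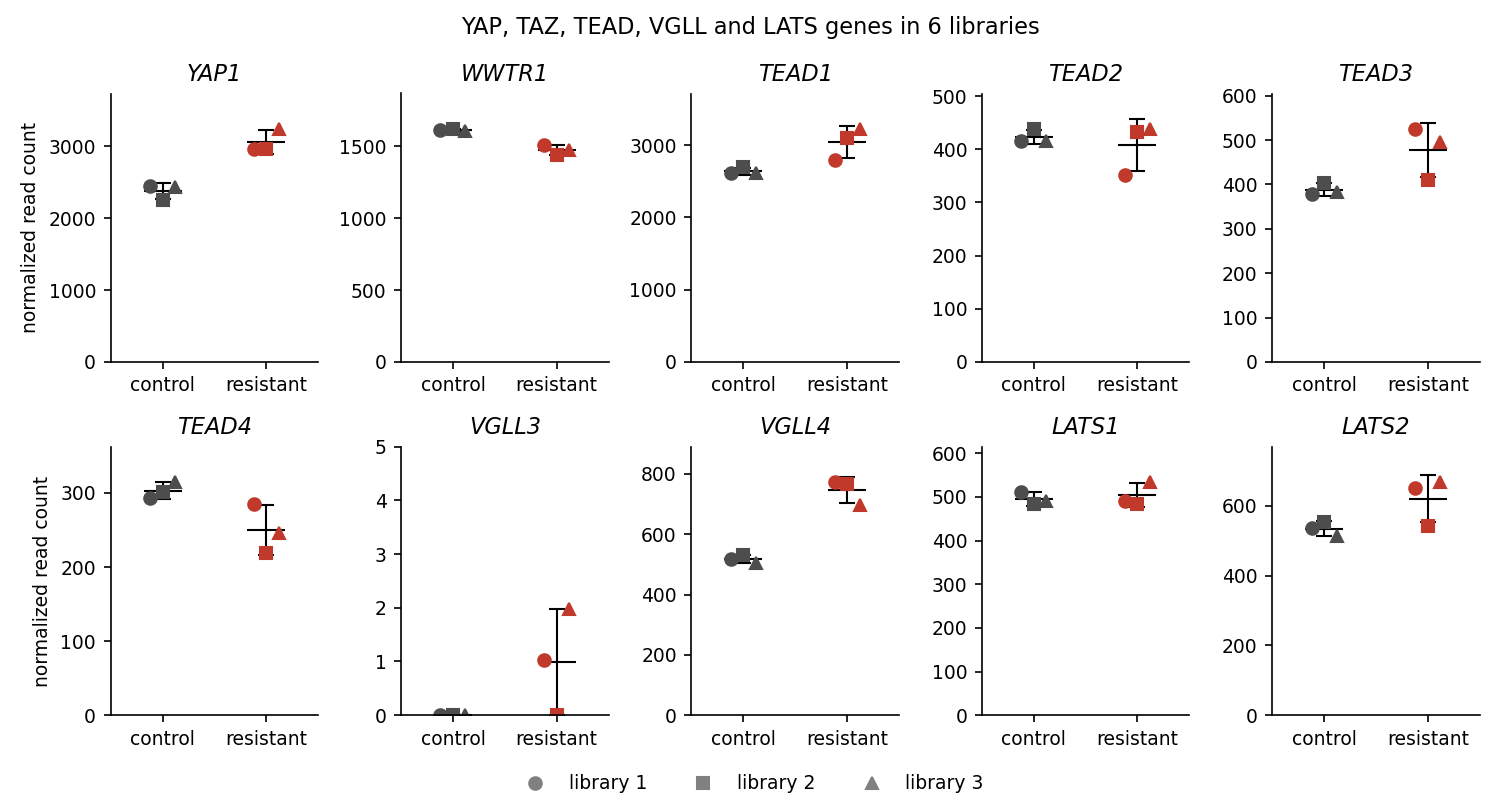
Normalized read counts (vertical axes, starting at 0) of the 10 genes in the 3 control (grey) and 3 resistant (red) libraries; symbols mark library 1, 2 and 3, and bars the mean and SD (n = 3). The resistant YAP1 values, 2955 to 3247, lie above all control values, while TEAD2, LATS1 and LATS2 overlap between the groups.

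YAP1, a coactivator restrained by the pathway (ENSG00000137693, chromosome 11 from 102110461 to 102233423 on GRCh38), stood at 2449.9, 2248 and 2432 in control 1, 2 and 3. Resistant 1, 2 and 3 gave 2955, 2960.0 and 3247. Every resistant library was above every control library, and resistant 1 was close to resistant 2. The means were 2376 ± 112 and 3054 ± 167 (SD, n = 3 each), a rise of 28.5%. On the log2 scale the fold change was 0.36 ± 0.07 SE (95% interval 0.23 to 0.50, limma adjusted p = 8.12e-05). It was 0.23 with median centring and 0.38 without resistant 1. Over the 16 alternatives it ran from 0.23 to 0.45, with adjusted p from 2.96e-07 to 0.0339.

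The YAP1 promoter is shown because YAP1 was called in every setting and because its upstream bases hold the core of the motif that TEAD proteins bind. The motif searched was GGAATG on either strand (CATTCC on the other), in RefSeq windows of 250 bases before to 50 bases after a gene's start on GRCh38.p14. The table gave windows for 8 of the 10 genes, without TEAD1 and TEAD4. A match was found for YAP1 and LATS2, 2 of 8 genes, and 16.7% of all 27305 genes with a window had one. By window, 2 of 15 had a match (13.3%), against 14.0% of all 35116 windows. VGLL4, which was also called in every setting, had no match in its 5 windows. The YAP1 match begins 162 bases before the RefSeq start and the LATS2 match 9 bases after it. The LATS2 match lies upstream of the gene bounds used for the counts (20973032 to 21061547, minus strand), which begin at another start. A match describes letters only, since no binding was measured here. The 250 bases before the YAP1 start (chr11:102110197-102110446, plus strand) and 26 bases around the LATS2 match (chr13:21061562-21061587, minus strand) read as follows, with the motif in capitals.
YAP1: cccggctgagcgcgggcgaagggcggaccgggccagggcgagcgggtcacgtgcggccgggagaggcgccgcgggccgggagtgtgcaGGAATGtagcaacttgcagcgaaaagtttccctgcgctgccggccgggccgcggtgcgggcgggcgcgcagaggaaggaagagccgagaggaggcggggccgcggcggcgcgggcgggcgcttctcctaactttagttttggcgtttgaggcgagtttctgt
LATS2: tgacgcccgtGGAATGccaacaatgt

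WWTR1, which encodes TAZ, the paralog of YAP (ENSG00000018408, chromosome 3 from 149517235 to 149736714), lay on the other side. It stood at 1613, 1625 and 1605 in control 1, 2 and 3 and at 1513, 1441 and 1477 in resistant 1, 2 and 3. The groups did not overlap, but the difference was small beside the spread that the model assigns to genes of this level. The means were 1614 ± 10.3 and 1477 ± 36.3, a difference of -8.51%. WWTR1 had a log2 fold change of -0.13 ± 0.07 SE (95% interval -0.26 to 0.01, limma adjusted p = 0.123) and missed the threshold. It was called lower with median centring (-0.26, adjusted p = 0.00225) and without resistant 1 (-0.15, adjusted p = 0.0444), and in none of the other 14 alternatives, in which adjusted p reached 0.567. WWTR1-AS1, on the opposite strand, shares 9.45% of the exon bases of WWTR1 and was low, at 6.05 in control and 10.3 in resistant libraries.

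The ratio of the paralogs within a library does not depend on the library's scaling. Per kilobase of merged exon, the YAP1 level was 2.03, 1.85 and 2.02 times the WWTR1 level in control 1, 2 and 3. In resistant 1, 2 and 3 it was 2.61, 2.75 and 2.94 times. All resistant ratios were above all control ratios. On the log2 scale of read counts, the ratio rose by 0.49 (0.56 ± 0.08 to 1.05 ± 0.09, SD, n = 3), with a two-sided exact permutation p of 0.1, the smallest that 3 against 3 libraries allow. With Benjamini-Hochberg adjustment over the 9 comparisons of this kind, p was 0.15. Leaving out single libraries kept the difference between 0.45 and 0.53. Summed per kilobase, YAP1 and WWTR1 stood at 581, 550.2 and 577 in control and 649, 641 and 691 in resistant libraries (exact permutation p = 0.1), with no overlap. Unlike the ratio, this sum depends on the library's scaling, and it was taken in the deposited scaling only.

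**Figure D2:**
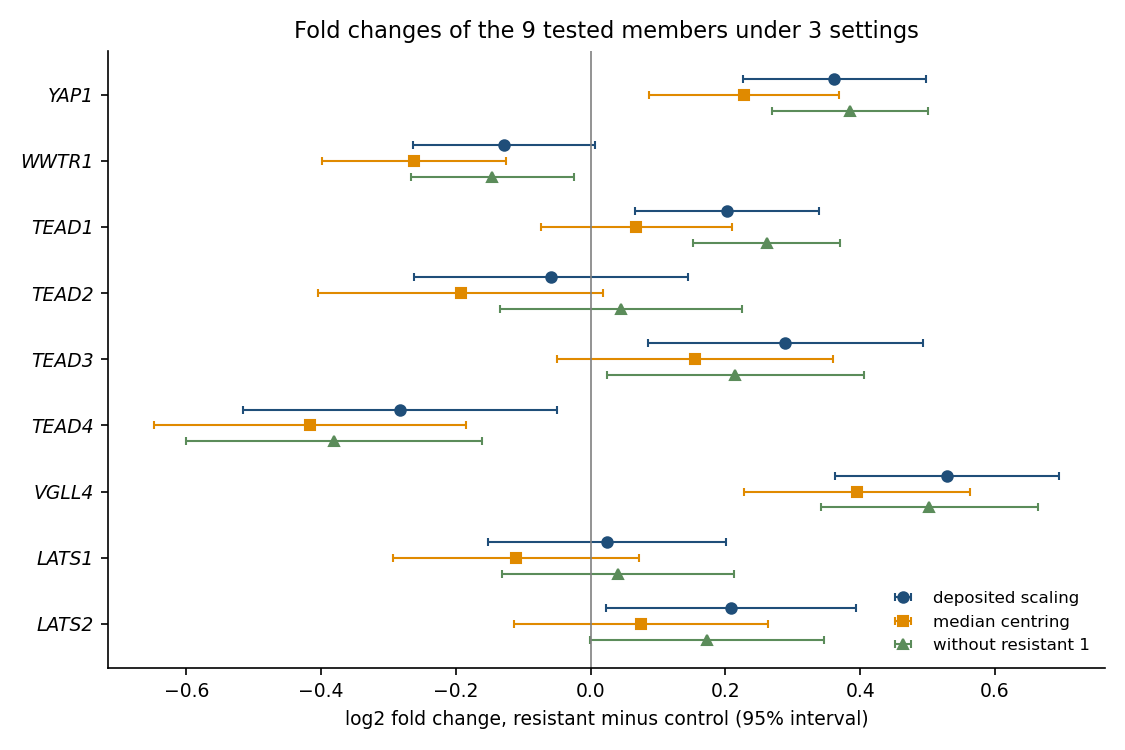
Log2 fold change, resistant minus control (horizontal axis), of the 9 tested genes with 95% intervals, for the deposited scaling (circles), median centring (squares) and without resistant 1 (triangles). The intervals of YAP1 and VGLL4 lie above 0 in all 3 settings, that of TEAD4 lies below 0 in all 3, and those of TEAD1 and TEAD3 reach 0 with median centring.

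The TEAD proteins carry the DNA-binding domain that YAP and TAZ lack. TEAD1 (ENSG00000187079, chromosome 11 from 12674591 to 12944483) stood at 2610.1, 2696 and 2615 in control and at 2798, 3099 and 3229.9 in resistant 1, 2 and 3. Resistant 1 was the lowest of its group but above all controls. The log2 fold change was 0.20 ± 0.07 SE (limma adjusted p = 0.0161), and without resistant 1 it was 0.26 (adjusted p = 8.23e-05). The call ended with median centring (0.07), with limma without trend (adjusted p = 0.156) and without resistant 2 (0.19), resistant 3 (0.16) or control 1 (0.19). Adjusted p ran up to 0.469 over the alternatives.

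TEAD3 (ENSG00000007866, chromosome 6 from 35473597 to 35497076), another member of the family, stood at 379, 404 and 383 in control and at 526, 409.8 and 496 in resistant 1, 2 and 3. Resistant 2 was only just above control 2, and the other resistant libraries were well above. TEAD3 rose by 0.29 ± 0.10 SE on the log2 scale (limma adjusted p = 0.021). The call ended with median centring (0.15), with limma without trend (adjusted p = 0.136) and without resistant 1 (0.21), resistant 3 (0.26), control 1 (0.27) or control 3 (0.28). Over the alternatives adjusted p ran from 0.00383 to 0.228.

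TEAD4 (ENSG00000197905, chromosome 12 from 2959330 to 3040673) was the member called lower. It stood at 293, 301 and 315 in control and at 286, 219 and 247 in resistant 1, 2 and 3, and resistant 1 was close to the lowest control. TEAD4 had a log2 fold change of -0.28 ± 0.11 SE, just past the threshold (limma adjusted p = 0.0472). Median centring gave -0.42 (adjusted p = 0.00392), and the fit without resistant 1 gave -0.38 (adjusted p = 0.00355). The call ended without any other library: resistant 2 (-0.19), resistant 3 (-0.28), control 1 (-0.31), control 2 (-0.29) or control 3 (-0.25). It also ended with quantile normalization, both smaller pseudocounts, DESeq2 (adjusted p = 0.0859) and limma without trend, and the highest adjusted p of any alternative was 0.239.

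TEAD2 (ENSG00000074219, chromosome 19 from 49340595 to 49362457) did not pass the test. It stood at 415, 437 and 415 in control and at 351, 433 and 439 in resistant 1, 2 and 3, so that only resistant 1 lay below the controls. The TEAD2 log2 fold change was -0.06 (95% interval -0.26 to 0.14, limma adjusted p = 0.677), and its sign turned to 0.05 without resistant 1. With median centring it was -0.19 (limma adjusted p = 0.138). CD37, on the opposite strand, shares 10.7% of the exon bases of TEAD2 and rose from 30.3 to 101. The strand handling of the counts was not given in the sources used here, so reads in the shared bases cannot be assigned.

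As shares of the TEAD level per kilobase, TEAD1 took 39.3, 38.9 and 38.7% in control 1, 2 and 3 and 39.5, 44.5 and 42.9% in resistant 1, 2 and 3. TEAD4 took 19.9, 19.7 and 21.1% in control and 18.3, 14.2 and 14.8% in resistant libraries. TEAD3 took 19.3 ± 0.306% and 22.4 ± 2.62%, and TEAD2 21.5 ± 0.296% and 19.5 ± 2.22% (SD, n = 3). The control libraries lay within a narrow range for every paralog, and the resistant libraries spread more widely, with resistant 1 just above the TEAD1 share of the controls and at the highest TEAD3 share. The groups did not overlap for TEAD1, TEAD3 and TEAD4, with a two-sided exact permutation p of 0.1 each, the smallest possible (0.133 adjusted over the 4 shares, 0.15 over all 9 comparisons). TEAD2 gave p = 0.2 by the same exact test. Without resistant 1, the difference in share was 4.74 percentage points for TEAD1, 1.70 for TEAD3, -0.728 for TEAD2 and -5.72 for TEAD4, against 3.36, 3.05, -1.95 and -4.47 with all libraries. The summed TEAD level per kilobase was 646, 674 and 658 in control and 688, 678 and 733 in resistant libraries (exact permutation p = 0.1). Unlike the shares, this sum depends on the library's scaling, and it was taken in the deposited scaling only. Median centring shifted log2 fold changes by -0.13, so a rise of the summed TEAD level is not established.

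**Figure D3:**
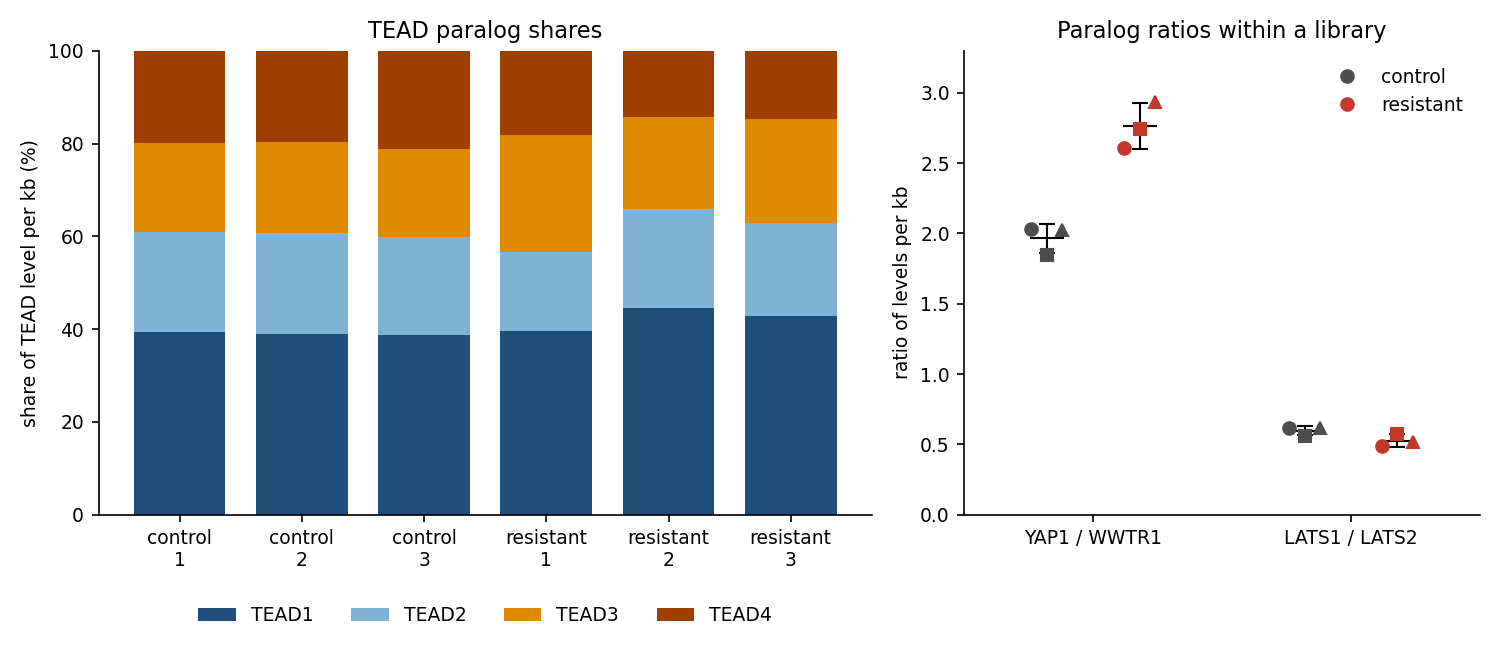
Left, share of each TEAD paralog in the summed TEAD level per kb (percent) for the 6 libraries; right, YAP1 to WWTR1 and LATS1 to LATS2 ratios of levels per kb in control (grey) and resistant (red) libraries, with circles, squares and triangles for libraries 1, 2 and 3 and bars for mean and SD (n = 3). The TEAD4 share is 14.2 to 18.3% in resistant and 19.7 to 21.1% in control libraries, and the YAP1 to WWTR1 ratio is 2.61 to 2.94 against 1.85 to 2.03.

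VGLL4, the TEAD cofactor that competes with YAP (ENSG00000144560, chromosome 3 from 11556070 to 11771350), rose more than any other of the 9 tested genes. It stood at 516, 530.0 and 503 in control and at 774, 767 and 698 in resistant 1, 2 and 3. The lowest resistant library was well above the highest control. The means were 517 ± 13.4 and 746 ± 41.8, a rise of 44.5%. VGLL4 rose by 0.53 ± 0.08 SE on the log2 scale (95% interval 0.36 to 0.70, limma adjusted p = 8.42e-06), 0.40 with median centring and 0.50 without resistant 1. Adjusted p ran from 1.94e-07 to 0.0101 over the alternatives. ATG7, an autophagy gene on the opposite strand, shares 22.1% of the exon bases of VGLL4 and fell from 1330.4 to 671. Reads in these bases cannot be assigned without the strand, and the genes moved in opposite directions.

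VGLL3 (ENSG00000206538, chromosome 3 from 86876388 to 86991119), another TEAD cofactor, was at 0 reads in all 3 control libraries and at 1, 0 and 2 reads in resistant 1, 2 and 3. All values lay under the floor of 3 reads per library, so no fold change is given. Of the other VGLL genes on the list of relatives, VGLL1 was also too low to be tested, and VGLL2 was not analysed here.

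LATS1 and LATS2, the kinases that phosphorylate YAP and TAZ, did not pass the test. LATS1 (ENSG00000131023, chromosome 6 from 149658153 to 149718256) stood at 512, 483 and 489.6 in control and at 492, 485 and 535 in resistant libraries, with overlapping groups. Its log2 fold change was 0.02 (95% interval -0.15 to 0.20, limma adjusted p = 0.854), and the sign turned with median centring (-0.11) and without resistant 3 (-0.02). LATS2 (ENSG00000150457, chromosome 13 from 20973032 to 21061547), which is also a target gene of YAP, stood at 536, 555 and 514 in control and at 649.6, 543 and 669 in resistant 1, 2 and 3. Resistant 2 lay among the controls and the other resistant libraries above them. LATS2 had a log2 fold change of 0.21 ± 0.09 SE (95% interval 0.02 to 0.39, limma adjusted p = 0.066). LATS2 was called higher with edgeR (0.21, adjusted p = 0.045), with quantile normalization (0.26, adjusted p = 0.0238) and without resistant 2 (0.30, adjusted p = 0.0146). With median centring it was 0.07, and adjusted p ran up to 0.559. The LATS1 to LATS2 ratio per kilobase was 0.617, 0.562 and 0.615 in control and 0.488, 0.576 and 0.516 in resistant libraries (two-sided exact permutation p = 0.2), with resistant 2 among the controls.

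Levels can be compared between genes only per kilobase. In control libraries the order was YAP1 (377 ± 17.8), TEAD1 (257 ± 4.68), WWTR1 (192 ± 1.23), TEAD2 (142 ± 4.34), TEAD4 (133 ± 4.997), TEAD3 (128 ± 4.49), LATS2 (95.9 ± 3.70), VGLL4 (71.4 ± 1.86) and LATS1 (57.3 ± 1.77), as normalized read counts per kilobase (SD, n = 3), with VGLL3 last. Of these neighbours only TEAD4 and TEAD3 overlapped in range. In resistant libraries YAP1 (485 ± 26.5) and TEAD1 (296 ± 21.5) again came first and LATS1 (58.3 ± 3.14) again came last before VGLL3. Between them, WWTR1 (176 ± 4.32), TEAD3 (157 ± 19.8), TEAD2 (137 ± 16.5), LATS2 (111 ± 12.2), TEAD4 (110.2 ± 14.8) and VGLL4 (103 ± 5.77) each overlapped the next in range, so adjacent places in this order were not resolved. WWTR1 lay wholly above TEAD2, LATS2, TEAD4 and VGLL4, and VGLL4 wholly below TEAD3 and TEAD2.

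The chromosomal neighbours of these genes are given beside the all-gene shares of 20.4% called higher and 21.1% called lower. Among the 20 tested genes nearest to YAP1, 10 to each side, 10 were called higher and 5 lower, with a median log2 fold change of 0.23. Around TEAD1 the counts were 6 and 3 (median 0.16). Around VGLL4 they were 2 and 6 (median -0.14), the opposite side from VGLL4 itself. Around TEAD3 they were 2 and 3 (median -0.07) and around TEAD4 3 and 2 (median 0.10). Of the genes not called or not tested, TEAD2 had 8 and 2 (median 0.31) and VGLL3 7 and 0 (median 0.34). Both medians were above that around YAP1. WWTR1 had 2 and 5 (median -0.01), LATS1 2 and 2 (median 0.01) and LATS2 3 and 2 (median 0.17).

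The genes most like YAP1 and WWTR1 over the 6 libraries were ranked by the root mean square distance of log2 values centred on each gene's mean, among 15295 other protein-coding genes. Nearest to YAP1 were RAB23 (distance 0.021), RLF (0.026) and RMND5A (0.027), with log2 fold changes of 0.36, 0.39 and 0.41. RMND5A stood at 947, 868 and 921 in control and at 1159, 1189 and 1281 in resistant libraries, so that control 2 was the lowest and resistant 3 the highest, as for YAP1. This likeness follows from the ranking, which used the same 6 libraries. Nearest to WWTR1 were MARCHF6 (0.017), NRDC (0.018) and BICD1 (0.020), with log2 fold changes of -0.12, -0.10 and -0.14, none of which passed the test. Of these, median centring ended the RAB23 call and brought MARCHF6, NRDC and BICD1 past the threshold. RAB23 also lost its call without resistant 3 (0.31) or control 2 (0.33), and MARCHF6 gained one without resistant 1 (-0.12).

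Upstream of LATS, kinases and scaffolds moved in both directions. Of 20 tested, 5 were called higher and 5 lower (median -0.04, against 0.01 over all genes tested). The share of all genes tested that was called was 41.5% (20.4% higher and 21.1% lower). WWC2, a scaffold that activates LATS, rose from 1008 ± 19.6 to 1633 ± 141 (log2 fold change 0.69), and its paralog WWC1, also known as KIBRA, fell by 0.23. FRMD6, a FERM-domain protein at the membrane, rose by 0.59. STK3, a kinase that activates LATS, rose from 197 ± 16.3 to 272 ± 17.9 (0.46), and its binding partner SAV1 rose by 0.30. The paralog STK4 was at 1090 ± 33.1 and 1015 ± 59.4 and missed the threshold (-0.10, limma adjusted p = 0.269). Among kinases that can phosphorylate LATS beside STK3 and STK4, MAP4K4 fell from 5917 ± 182 to 3089 ± 123 (-0.94), and MAP4K3, TNIK and TAOK1 had log2 fold changes of -0.42, -0.50 and -0.38, while TAOK2 rose by 0.31. NF2, the tumour suppressor merlin, was at 2917 ± 43.0 and 2861 ± 203 and was not called (-0.03). The calls of SAV1, which shares exon bases with ATL1 on the opposite strand, and of TAOK2 ended with median centring (0.16 and 0.18). That of WWC1 ended with quantile normalization (-0.15). All 3 ended with limma without trend (adjusted p = 0.0635 for SAV1, 0.0701 for TAOK2 and 0.0955 for WWC1).

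Regulators of YAP at junctions and the cytoskeleton held the largest changes of the pathway. Of 19 tested, 8 were called higher and 2 lower (52.6% called, median 0.19), against 41.5% of all genes tested (20.4% higher and 21.1% lower). FAT3 and CRB1 were too low to be tested. AJUBA, a LIM protein that binds and restrains LATS, stood at 2476, 2634 and 2487 in control and at 6065, 5391 and 5313 in resistant libraries, with a log2 fold change of 1.14 (limma adjusted p = 1.14e-12). All resistant libraries were above all controls. FAT4, an atypical cadherin of the pathway, rose from 204 ± 35.4 to 1237 ± 154 (2.60), and PATJ, a polarity scaffold, from 242 ± 32.5 to 432 ± 12.6 (0.84). AMOTL1, an angiomotin that binds YAP, fell from 154 ± 19.9 to 15.1 ± 4.79 (-3.30). FAT1 was the other gene called lower (-0.32), a call that ended with quantile normalization (-0.22), with limma without trend (adjusted p = 0.161) and without control 1 (-0.25). AMOTL2 and PTPN14, which are also YAP target genes, rose by 0.39 and 0.29, and WTIP rose from 18.6 ± 5.06 to 65.5 ± 3.79 (1.79). For these genes, fold changes in the alternative settings are not given. With median centring, 7 of the 19 tested were called higher and 3 lower. DCHS2, a cadherin that pairs with FAT proteins, was called higher but had 1, 1 and 0 reads in the control libraries, under the floor of 3, and 16, 25 and 13 in the resistant libraries, so no fold change is given. AMOT was also called higher from few reads, 1, 5 and 0 in control and 6, 11 and 10 in resistant libraries. No fold change is given for AMOT either.

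**Figure D4:**
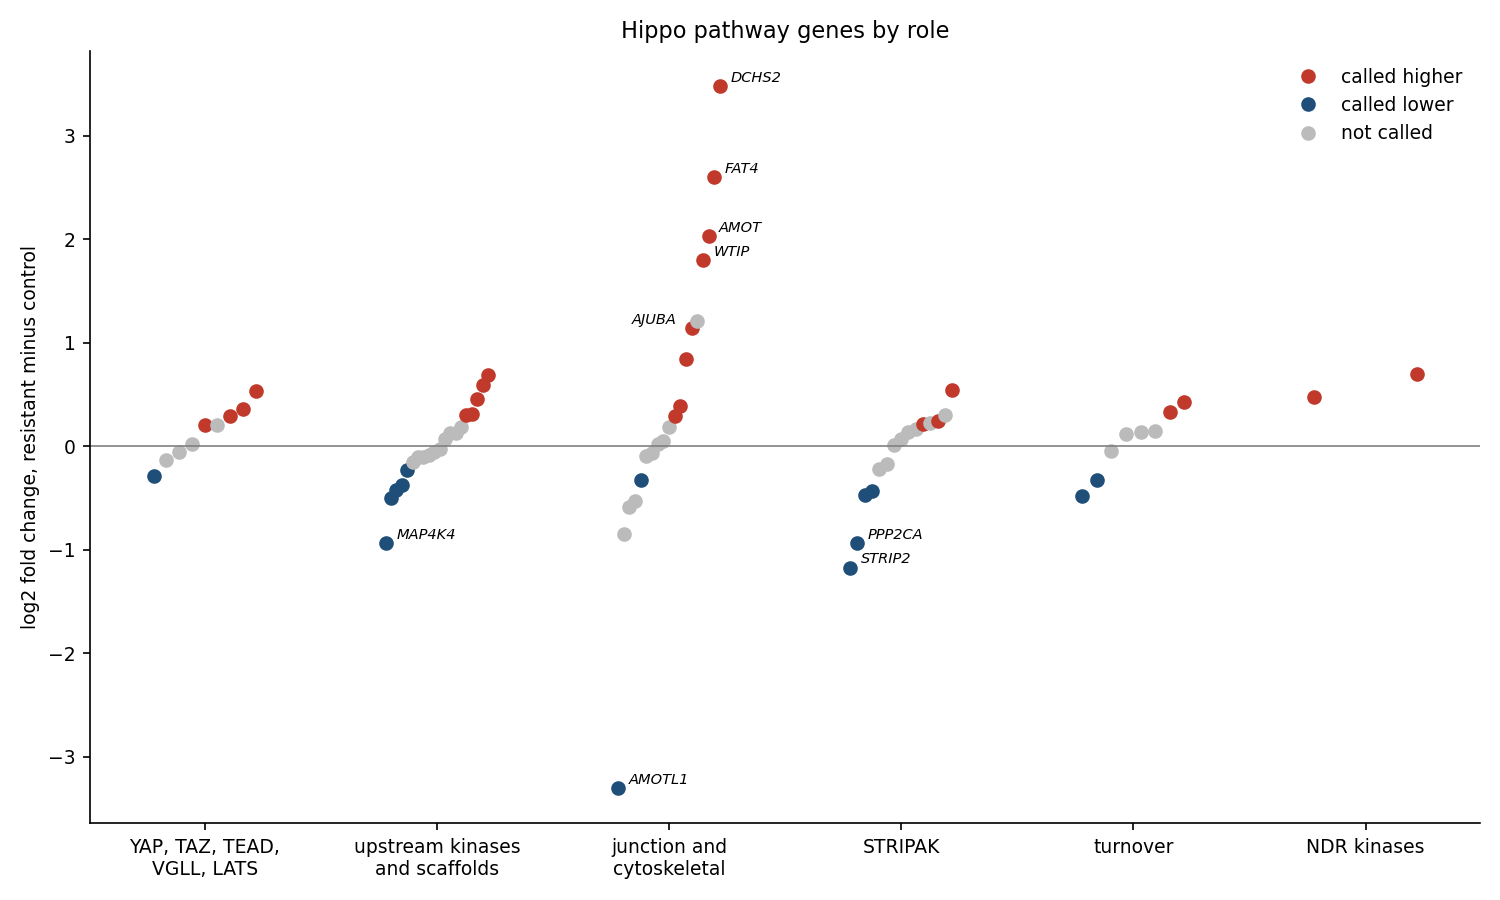
Log2 fold change, resistant minus control (vertical axis), of tested Hippo pathway genes, each point a gene, by role; red points were called higher, blue lower and grey were not called. The YAP, TAZ, TEAD, VGLL and LATS genes lie between -0.28 and 0.53, while junction and cytoskeletal regulators run from -3.30 (AMOTL1) to 2.60 (FAT4), leaving out DCHS2, whose height depends on the pseudocount because its control libraries hold 1, 1 and 0 reads. The point of AMOT, inside this range, also rests on few control reads (1, 5 and 0).

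Genes of the STRIPAK complex, a phosphatase assembly that acts on the upstream kinases, were called higher for 3 and lower for 4 of 15 tested (46.7% called, against 41.5% of all genes tested, median 0.07). STK26 was not analysed here. PPP2CA, the catalytic subunit of the phosphatase, fell from 2698 ± 101 to 1408 ± 88.2 (-0.94), and PPP2R1A, its scaffold subunit, from 8028 ± 479 to 5935 ± 98.5 (-0.43). STRIP2 and STRN, which hold the complex together, had log2 fold changes of -1.17 and -0.47. FGFR1OP2, SIKE1 and PDCD10 were called higher, by 0.54, 0.25 and 0.22. The calls of SIKE1 and PDCD10 ended with median centring (0.11 and 0.09) and with limma without trend (adjusted p = 0.119 and 0.122). The SIKE1 call also ended without resistant 1 (0.19), control 1 (0.20) or control 2 (0.25), and the PDCD10 call without resistant 3 (0.20), control 1 (0.21) or control 2 (0.20).

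Of 8 genes that act on the turnover of YAP or LATS, 2 were called higher and 2 lower (median 0.13), where 41.5% of all genes tested were called. FBXW11, a subunit of the ubiquitin ligase that recognises phosphorylated YAP, fell from 1311 ± 29.9 to 942 ± 93.8 (-0.48), and its paralog BTRC from 508 ± 20.2 to 407 ± 61.5 (-0.33). The BTRC call ended without resistant 2 (-0.28) or control 3 (-0.30) and with limma without trend (adjusted p = 0.119). CSNK1D, a kinase that primes this recognition and that shares exon bases with SLC16A3 on the opposite strand, rose by 0.33. SIAH2, a ubiquitin ligase that acts on LATS2, rose from 596 ± 6.82 to 803 ± 54.2 (0.43). STK38 and STK38L, the NDR kinases related to LATS, rose from 1002 ± 40.0 to 1623 ± 97.1 (0.69) and from 374 ± 41.1 to 521 ± 61.8 (0.48), and the STK38L call ended with limma without trend (adjusted p = 0.0553).

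In a published signature of YAP and TAZ target genes, 9 of 21 tested were called higher and 5 lower (median 0.29). This was 66.7% called, against 41.5% of all genes tested (20.4% higher and 21.1% lower). LATS2, AMOTL2 and PTPN14 are shared with the genes above. Higher and lower calls were 11 and 3 with quantile normalization, 8 and 5 with median centring, and 10 and 7 without resistant 1. TGFB2, ARHGEF17 and CCDC80 had the smallest adjusted p among those called higher (log2 fold changes 1.86, 1.01 and 1.30). The largest rise was that of ANKRD1 (3.13). CCN1 was called higher (0.47), and CCN2 was not called (0.14, limma adjusted p = 0.105). MYOF (-0.70), AXL (-0.82), NT5E (-2.60), DOCK5 (-0.20) and FJX1 (-0.23) were called lower. DOCK5 lost its call without resistant 2 (-0.12), control 1 (-0.18), control 2 (-0.22) or control 3 (-0.21). Limma without trend (adjusted p = 0.194) and quantile normalization also ended it. FJX1 lost its call without resistant 2 (-0.21), resistant 3 (-0.19), control 1 (-0.21) or control 2 (-0.19), with quantile normalization, with both smaller pseudocounts, with DESeq2 (adjusted p = 0.0789) and with limma without trend (adjusted p = 0.179).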

How the data were processed

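RNA-seq values of 3 resistant and 3 control libraries were analysed. The authors deposited a table per library on a signal scale, on GRCh38 per the submitters' processing notes; how reads were aligned, counted (strand included) and scaled was not given in the sources used here. Divided by the smallest step of its library, 100% of the authors' signal values came out whole within 0.001 reads. They are thus reads over a size factor, and whole reads were recovered. Values were tested as log2(value + 1) where a gene reached 1 in 3 or more libraries, with limma-trend (limma 3.58.1, R 4.3.3, robust, group as the sole term, two-sided), adjusted over 24560 genes. Gene lengths in the deposited tables equal merged exon lengths of GENCODE 29 for 30325 of 30330 genes. Symbols were found for 30078 genes through a table of Ensembl identifiers. Paralog ratios and shares were tested by exact permutation over libraries. Alternatives changed the scaling (quantile or median centring), the filter (none, or a floor of 5), the pseudocount (0.1 or 0.01) or the model (limma without trend, a block for replicate number, edgeR 4.0.16 and DESeq2 1.42.0 on recovered reads), or left out each library. The pipeline was tested on simulated data. The named genes were the 10 genes of the rule, up to 3 called genes per direction of each pathway list by adjusted p (all where 5 or fewer were called), and the 3 nearest genes to YAP1 and WWTR1. Other genes (STK4, NF2, AMOT, AMOTL2, PTPN14, WTIP, DCHS2, ANKRD1, CCN1, CCN2 and genes not tested) were named after their values were seen. The genes and lists were chosen with earlier results of these data known.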

Additional observations from a re-analysis of the deposited data

How the results depend on the processing

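Among the YAP1, WWTR1, TEAD, VGLL and LATS genes, the reported test called 5 and limma without trend called 2. Leaving out single libraries gave 2 (without resistant 3 or control 1) to 5 calls. The 5 called without resistant 1 included WWTR1 and not TEAD3. YAP1 and VGLL4 were called in every alternative. The count of NDR kinases called went from 2 to 1 with limma without trend. The TEAD4 share of TEAD differed by -2.05 percentage points when shares were taken of reads without division by length, against -4.47 per kilobase. With single libraries left out, the log2 fold change ran from -0.12 to 0.045 for TEAD2, with the sign turned without resistant 1, and from -0.020 to 0.051 for LATS1, with the sign turned without resistant 3. Median centring turned the sign of LATS1 (-0.11). The cause of these changes was not tested. Over all genes, 7573 to 10379 were called, within 1.5 times the 10204 of the reported test. Nothing in the labels ties a replicate number to a batch, and same-numbered libraries did not deviate together (correlations over genes from -0.0015 to 0.0067); with the replicate block, 10175 genes and the same count of 5 of these genes were called, the call of none of the 51 named and tested genes changed, and not every library correlated best with its own number. VGLL3, at 2 reads or fewer in every library, was too low to be tested at this depth, and whether more depth would change that was not tested. Each library left out leaves 2 in its group, and fold changes as small as those of TEAD1, TEAD3 and TEAD4 were then often not called.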
